A study of Mus musculus with 24 samples.

Results

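Choroid plexus epithelium genes were followed here through a brain RNA-seq series: Ttr, Clic6, F5, Aqp1, Kl, Folr1, Kcnj13, Otx2 and Htr2c. The 9 genes were chosen by name as genes of that epithelium. No measured value entered the rule, but earlier results of these data were known at the time. Each symbol was matched to 1 Ensembl identifier, giving 9 of the 37621 features counted in all 24 libraries. The mice were C57BL/6, either wild type or carrying a knockout of Cdr1as, a brain circular RNA, and poly(A)-selected RNA was sequenced from dissected cerebellum, cortex, hippocampus and olfactory bulb. The 8 groups (wild type and knockout in each region) held 3 libraries each. Age, sex, how the knockout was made and whether the 3 libraries of a group came from separate animals are not given in the sources used here, so p-values measure only the spread between these libraries. The question the design poses is whether loss of Cdr1as changes expression in each region. For these 9 genes a prior question is which libraries hold choroid plexus RNA at all.

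The choroid plexus is a fringe of vascularised epithelium that hangs in the brain ventricles and secretes cerebrospinal fluid. It is attached to the wall of the lateral ventricle beside the hippocampus, to the roof of the third ventricle, and to the roof of the fourth ventricle under the cerebellum. Its epithelial cells make very large amounts of transthyretin, carry water and ions across their apical membrane, bind and transport folate, and respond to serotonin. A dissected brain region can therefore carry more or less of this tissue, and in bulk RNA fewer cells of a type and less RNA per cell cannot be told apart.

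Each library held between 21.1 M and 40.5 M reads counted to genes. Values below are CPM, counts scaled to the same library size with edgeR's trimmed mean of M values (TMM). The floor of 3 counts corresponds to 0.0741 to 0.142 CPM, a limit for counting error only. Cdr1asG, the feature the authors added for the deleted locus, lay between 2.23 and 29.0 CPM in the 12 wild-type libraries and between 0.115 and 1.95 CPM in the 12 knockout libraries; circular RNA itself is not captured by poly(A) selection. Markers of 3 regions were summed to check the dissections. The cerebellum set (Pcp2, Cbln3, Gabra6, Zic1) gave 3488 to 3911 CPM in wild-type cerebellum against at most 144.5 CPM in the groups of other regions, the hippocampus set (Prox1, Fibcd1, Spink8, Wfs1) 470.9 to 589.7 CPM in wild-type hippocampus, and the bulb set (Tbx21, Doc2g, Eomes, Cdhr1) 942.9 to 1055 CPM in wild-type bulb. In both genotypes every library of these 3 regions lay above all libraries of the other regions for its own set.

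Ttr, the thyroid hormone and retinol carrier that dominates this epithelium, varied between the libraries of a region, by 618-fold in cerebellum, 449-fold in hippocampus, 82.0-fold in cortex and 2.14-fold in the bulb. In cerebellum it was at 1851, 2156 and 3.49 CPM in wild type 1, 2 and 3 and at 323, 1172 and 583 CPM in knockout 1, 2 and 3. In hippocampus it was at 2260, 6.78 and 2991 CPM in wild type and at 13.0, 8.57 and 6.66 CPM in knockout. In cortex it was at 352, 123 and 4.30 CPM in wild type and at 163, 10.01 and 310 CPM in knockout. The high libraries were thus 5 of 6 in cerebellum, 4 of 6 in cortex and 2 of 6 in hippocampus if a level of 100 CPM is taken, 11 of 24 in all, and in cerebellum and cortex they included both genotypes while in hippocampus they were wild type 1 and wild type 3. In olfactory bulb, which has no choroid plexus of its own, Ttr stayed at 1.01, 0.798 and 1.03 CPM in wild type and at 0.498, 0.825 and 0.481 CPM in knockout. The highest library exceeded the lowest by 6215-fold.

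The 9 genes together summed to 3399 CPM in hippocampus wild type 3 and to 34.6 CPM in cerebellum wild type 3. Ttr made up 88.0% of that sum in the first of these libraries and 10.1% in the second, and between 0.562% and 1.51% in the bulb. Per kilobase of annotated exon, which allows genes to be compared with each other, hippocampus wild type 3 held 2522 CPM per kb of Ttr. The other 8 members followed in that library with 18.7 CPM per kb of Kcnj13, 16.5 of Clic6, 14.2 of Kl, 9.92 of Folr1, 9.17 of Htr2c, 6.89 of F5, 6.00 of Aqp1 and 2.76 of Otx2. The heat map of all members in all libraries shows the columns rich in Ttr as bright, and the rows of Aqp1, Otx2, Htr2c and Kl as bright elsewhere too. Kl held 26.5 to 29.7 CPM in the hippocampal libraries with little Ttr.

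**Figure D1:**
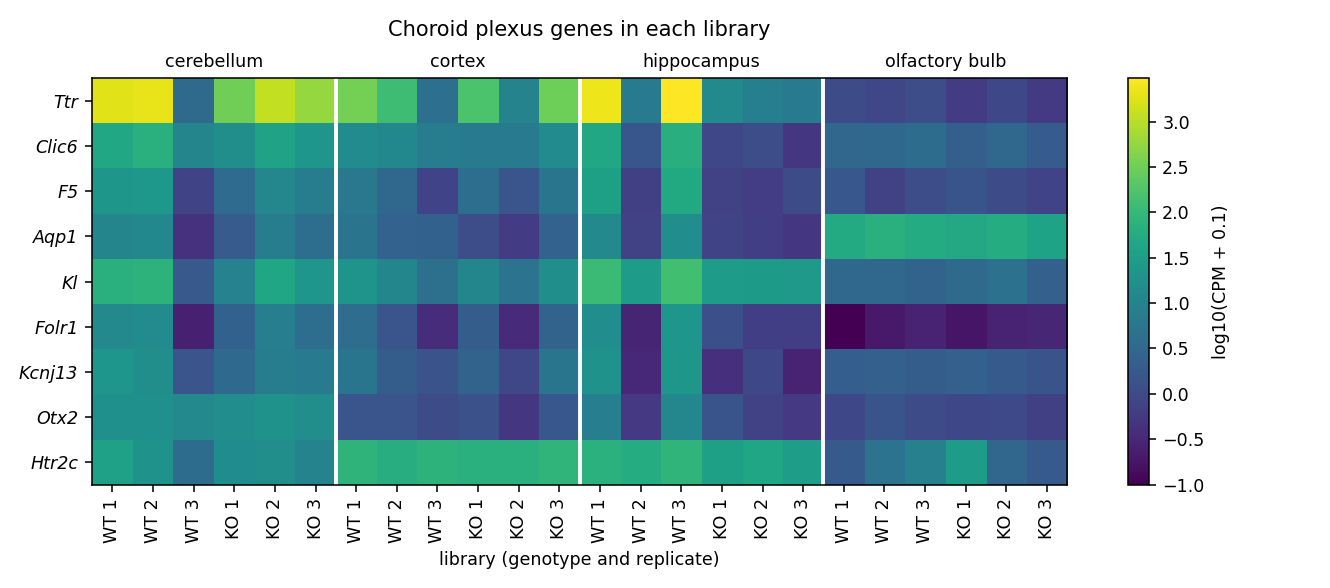
Level of the 9 genes (rows) in the 24 libraries (columns, grouped by region, then genotype and replicate), as the base 10 logarithm of CPM plus 0.1. Ttr reached 2991 CPM in hippocampus WT 3 and was at 6.78 CPM in hippocampus WT 2, while Aqp1 was highest in all 6 bulb libraries and Htr2c was high in all 6 cortex libraries.

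Among the secreted and transport proteins, Folr1, the folate receptor through which folate enters cerebrospinal fluid, followed Ttr most closely in the cerebellum (r squared of 0.9998 for the line below). Folr1 was at 12.8, 14.6 and 0.149 CPM in wild-type cerebellum and at 2.34, 8.02 and 4.05 CPM in knockout cerebellum, the same order of libraries as for Ttr. It was at 15.7, 0.186 and 22.8 CPM in wild-type hippocampus and at 1.16, 0.583 and 0.589 CPM in knockout hippocampus. In the bulb Folr1 did not exceed 0.198 CPM, and bulb wild type 1 had 0 counts, which allows up to 0.133 CPM. Across the 6 libraries of the cerebellum the least-squares line gave 6.75 CPM of Folr1 for every 1000 CPM of Ttr (SE 0.0498), with 0.136 CPM (SE 0.0639) left at a Ttr level of 0. F5, coagulation factor V, was fitted at 0.278 CPM (SE 0.979) without Ttr in cerebellum and at 0.419 CPM (SE 0.667) in hippocampus, and reached 51.2 CPM in hippocampus wild type 3.

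Kl encodes klotho, the co-receptor for the hormone FGF23 that is also shed into cerebrospinal fluid. In the cerebellum Kl went with Ttr down to a low level, at 68.6, 76.9 and 1.67 CPM in wild type and 9.70, 44.3 and 22.2 CPM in knockout. In the hippocampus it did not fall below 26.5 CPM. There the 4 libraries with little Ttr held 29.1 CPM (wild type 2) and 29.7, 27.4 and 26.5 CPM (knockout 1, 2 and 3), close to each other, and the libraries rich in Ttr held 110.3 and 132.9 CPM. The fitted level at a Ttr level of 0 was 28.0 CPM (SE 0.877) in hippocampus, 4.65 CPM (SE 0.706) in cortex and 0.590 CPM (SE 1.21) in cerebellum. Klotho RNA is known from hippocampal neurons as well as from the choroid plexus; which cells carried it here was not measured.

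The channels split in the same way. Kcnj13, an inwardly rectifying potassium channel of the apical membrane, ranged from 0.181 CPM in hippocampus knockout 3 to 23.7 CPM in hippocampus wild type 3, and stayed between 1.36 and 2.26 CPM in the bulb. On GRCm38, 623 of its 1270 exon bases overlap exons of Gigyf2 on the other strand. Whether counting used the strand is not given in the sources used here, so the low values of Kcnj13 are uncertain. Clic6, an intracellular chloride channel family member, was at 46.9, 70.2 and 10.6 CPM in wild-type cerebellum and at 16.0, 37.8 and 22.2 CPM in knockout cerebellum. It kept 10.6 CPM in cerebellum wild type 3 and between 6.99 and 14.1 CPM in cortex, but was at 0.408 to 1.45 CPM in the 4 hippocampal libraries with little Ttr. Clic6 therefore had a level of its own in cerebellum and cortex (8.29 CPM, SE 3.75, and 7.12 CPM, SE 1.36, at a Ttr level of 0) and 0.735 CPM (SE 0.194) in hippocampus.

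Aqp1, the water channel of the apical membrane, was highest where Ttr was lowest. In the bulb it was at 53.7, 69.5 and 56.5 CPM in wild type and at 49.7, 59.9 and 39.0 CPM in knockout. Outside the bulb its highest value was 15.8 CPM, in hippocampus wild type 3, so the bulb libraries overlapped no other library. In cerebellum and hippocampus Aqp1 went with Ttr, with 0.328 CPM in cerebellum wild type 3 and 0.408 to 0.716 CPM in the 4 hippocampal libraries with little Ttr. In cortex it lay between 0.512 and 5.14 CPM and went with Ttr loosely (7.64 CPM per 1000 CPM of Ttr, SE 3.92). Aqp1 is known in the ensheathing glia of the olfactory system, which were not measured apart here.

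Otx2, the homeodomain factor that maintains choroid plexus identity, had a level in the cerebellum that barely moved with Ttr. It was at 17.7, 17.2 and 12.6 CPM in wild-type cerebellum and at 15.7, 18.7 and 15.9 CPM in knockout cerebellum, so cerebellum wild type 3, with 3.49 CPM of Ttr, still held 12.6 CPM. The fitted level at a Ttr level of 0 was 14.4 CPM (SE 1.04) in cerebellum, against 0.805 CPM (SE 0.187) in cortex and 0.661 CPM (SE 0.239) in hippocampus. In hippocampus Otx2 was at 8.16, 0.447 and 11.6 CPM in wild type and at 1.34, 0.651 and 0.453 CPM in knockout, high only in the 2 libraries rich in Ttr. Otx2 shares 154 exon bases with Otx2os1 on the opposite strand and 168 with Gm49154 on its own strand, neither of which has a row in the count tables, so part of its counts is uncertain. The posterior cerebellar lobules are a known site of OTX2 in granule neurons.

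Htr2c, a serotonin receptor first known for its density in the choroid plexus and also found on many forebrain neurons, followed Ttr least in cortex (r squared 0.285) and hippocampus (0.801); in cerebellum Otx2 was lower still (0.565, against 0.621 for Htr2c). In cortex it was at 82.1, 61.8 and 78.8 CPM in wild type and at 69.5, 69.2 and 83.3 CPM in knockout, although Ttr ranged there from 4.30 to 352 CPM. In hippocampus it was at 72.1, 59.0 and 85.5 CPM in wild type and at 35.2, 43.6 and 31.0 CPM in knockout. In cerebellum it was at 36.3, 20.1 and 3.67 CPM in wild type and at 14.8, 16.3 and 9.75 CPM in knockout, lowest in the library lowest in Ttr. Bulb knockout 1, at 28.4 CPM, stood apart from the other 5 bulb libraries, which lay between 1.72 and 8.79 CPM. Neurod6, a transcription factor of forebrain excitatory neurons, was also highest in bulb knockout 1, at 3.90 CPM against 1.13 to 1.64 CPM in the other 5. It was picked from 12 neuron markers after its value was seen, and its part in this was not tested. Others of that list varied less in the bulb. Camk2a lay at 803.3 to 857.3 CPM in wild type and 932.5 to 1053 CPM in knockout. Nrgn lay at 105.1 to 123.3 and 123.6 to 143.5 CPM, and Slc17a7 at 527 to 593.3 and 541.7 to 664.2 CPM. By mean over 6 libraries the order of regions was cortex, hippocampus, cerebellum and bulb, and the ranges of cortex and hippocampus overlapped, as did those of hippocampus and cerebellum and those of cerebellum and bulb. The plot of 4 members by region sets these levels side by side.

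**Figure D2:**
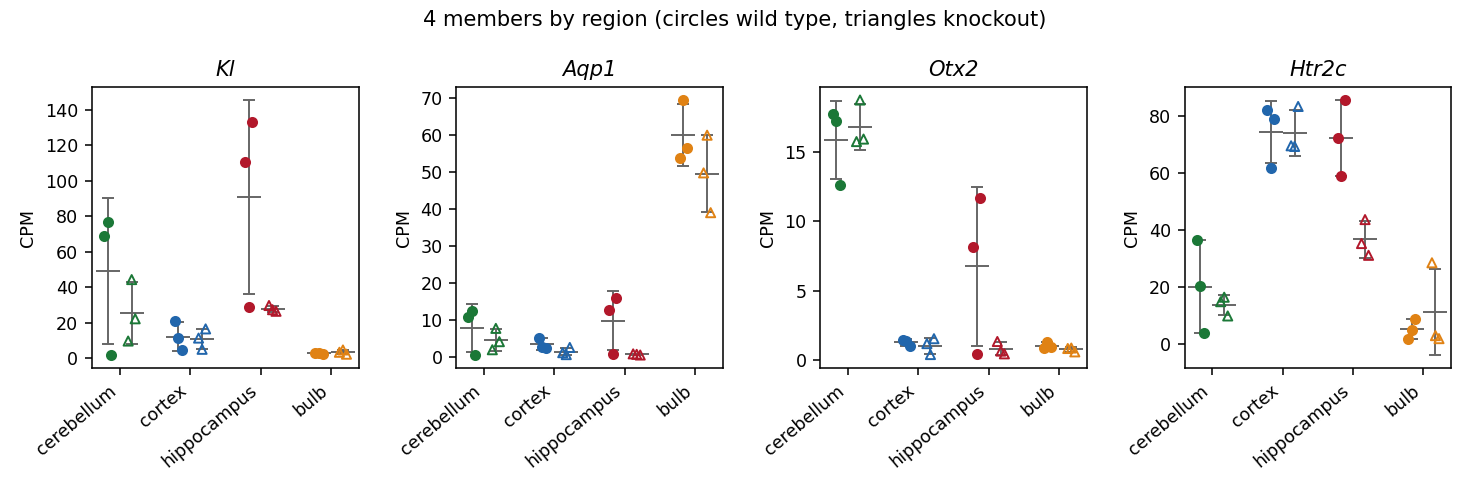
CPM of Kl, Aqp1, Otx2 and Htr2c in each library, by region, with circles for wild type and triangles for knockout; the horizontal mark and bar give the mean and SD of 3 libraries. Aqp1 stands above 38 CPM in all 6 bulb libraries, Otx2 above 12 CPM in all 6 cerebellum libraries, and Htr2c above 61 CPM in all 6 cortex libraries.

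Promoter sequences were read for members that followed Ttr and for members with regional levels of their own. The RefSeq table (GRCm38.p6) held windows for 6 of the 9 members (F5, Aqp1, Kl, Kcnj13, Otx2 and Htr2c), and the 250 bases before the annotated start were searched on both strands for TAATCC, the core that OTX-type homeodomain proteins are known to bind, for CCAAT and for TATAAA. The last 2 motifs were chosen after the windows had been read. In the sequences below, written 5′ to 3′ on the strand of the gene, capitals mark matches. Kcnj13 is shown as a member that went with Ttr, at chr1:87394730-87394979 on the minus strand. Otx2 (chr14:48667645-48667894, minus strand, the farthest upstream of its starts), Aqp1 (chr6:55336049-55336298, plus strand) and Htr2c (chrX:146962263-146962512, plus strand) are shown too. These 3 had a level apart from Ttr, in cerebellum, bulb and cortex respectively. Kl and Clic6, which also kept such a level in some regions, are not shown. All 4 windows hold no annotated exon base.
Kcnj13: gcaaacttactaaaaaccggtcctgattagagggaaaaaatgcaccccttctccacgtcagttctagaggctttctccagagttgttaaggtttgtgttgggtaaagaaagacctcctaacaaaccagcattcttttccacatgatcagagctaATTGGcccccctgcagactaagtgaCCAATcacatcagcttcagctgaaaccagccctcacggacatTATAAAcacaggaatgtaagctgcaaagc
Otx2: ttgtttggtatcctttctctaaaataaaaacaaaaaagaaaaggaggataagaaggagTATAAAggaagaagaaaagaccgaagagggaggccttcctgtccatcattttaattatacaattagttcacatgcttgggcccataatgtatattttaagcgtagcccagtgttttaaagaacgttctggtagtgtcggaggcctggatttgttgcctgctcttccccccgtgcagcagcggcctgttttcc
Aqp1: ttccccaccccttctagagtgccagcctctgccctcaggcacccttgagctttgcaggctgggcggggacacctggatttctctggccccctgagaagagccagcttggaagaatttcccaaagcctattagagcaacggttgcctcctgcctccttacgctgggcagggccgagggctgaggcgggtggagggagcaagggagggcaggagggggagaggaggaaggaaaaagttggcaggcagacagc
Htr2c: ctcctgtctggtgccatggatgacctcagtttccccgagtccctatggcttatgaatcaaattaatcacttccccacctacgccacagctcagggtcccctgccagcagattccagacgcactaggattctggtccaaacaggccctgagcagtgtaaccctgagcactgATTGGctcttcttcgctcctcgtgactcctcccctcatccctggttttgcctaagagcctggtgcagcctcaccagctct
The Kcnj13 window held TATAAA at 29 to 24 bases before the start, CCAAT on its own strand at 71 to 67 bases and CCAAT on the opposite strand (printed as ATTGG) at 96 to 92 bases. The Otx2 window held TATAAA at 192 to 187 bases, the Htr2c window held CCAAT on the opposite strand at 80 to 76 bases, and the Aqp1 window held none of the 3. TAATCC was in none of the 4 windows shown. Among all 9 windows of the members it occurred once, in another Otx2 window, on the opposite strand at 211 to 206 bases before that start. One more Otx2 window held CCAAT on the opposite strand at 70 to 66 bases. Among all 32851 windows of this length 6.25% held TAATCC, 33.9% held CCAAT and 12.4% held TATAAA on either strand. A match here describes letters only, and the absence of one says only that these letters are not in the window.

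How much of each member came with a given amount of Ttr was described by a least-squares line on linear CPM within each region, over 6 libraries of both genotypes. The slopes were similar in cerebellum and hippocampus for most members. For 1000 CPM of Ttr, Kl rose by 36.1 CPM (SE 0.944) in cerebellum and 35.6 CPM (SE 0.573) in hippocampus. Clic6 gave 25.3 (SE 2.92) and 21.3 (SE 0.127), Kcnj13 gave 8.73 (SE 1.92) and 7.93 (SE 0.121), and Aqp1 gave 5.63 (SE 0.215) and 5.18 (SE 0.0839) CPM. F5 and Otx2 differed by more than 2 SE of the difference, Otx2 narrowly (1.69, SE 0.829). F5 rose by 11.6 CPM (SE 0.762) in cerebellum and by 16.5 CPM (SE 0.436) in hippocampus, and its ranges when each library was left out in turn, 10.98 to 12.04 and 15.5 to 16.9, stayed apart. Otx2 rose by 1.86 CPM (SE 0.814) and 3.54 CPM (SE 0.156), and its ranges were 0.969 to 2.61 and 3.31 to 3.66. The ranges of Aqp1, 5.52 to 5.77 and 5.09 to 5.36, stayed apart too, with a difference of -0.451 (SE 0.231). Every hippocampal slope rests on wild type 1 and wild type 3, since the other libraries there held at most 13.0 CPM of Ttr. These lines are descriptions, with no test, and were chosen after the data had been seen.

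**Figure D3:**
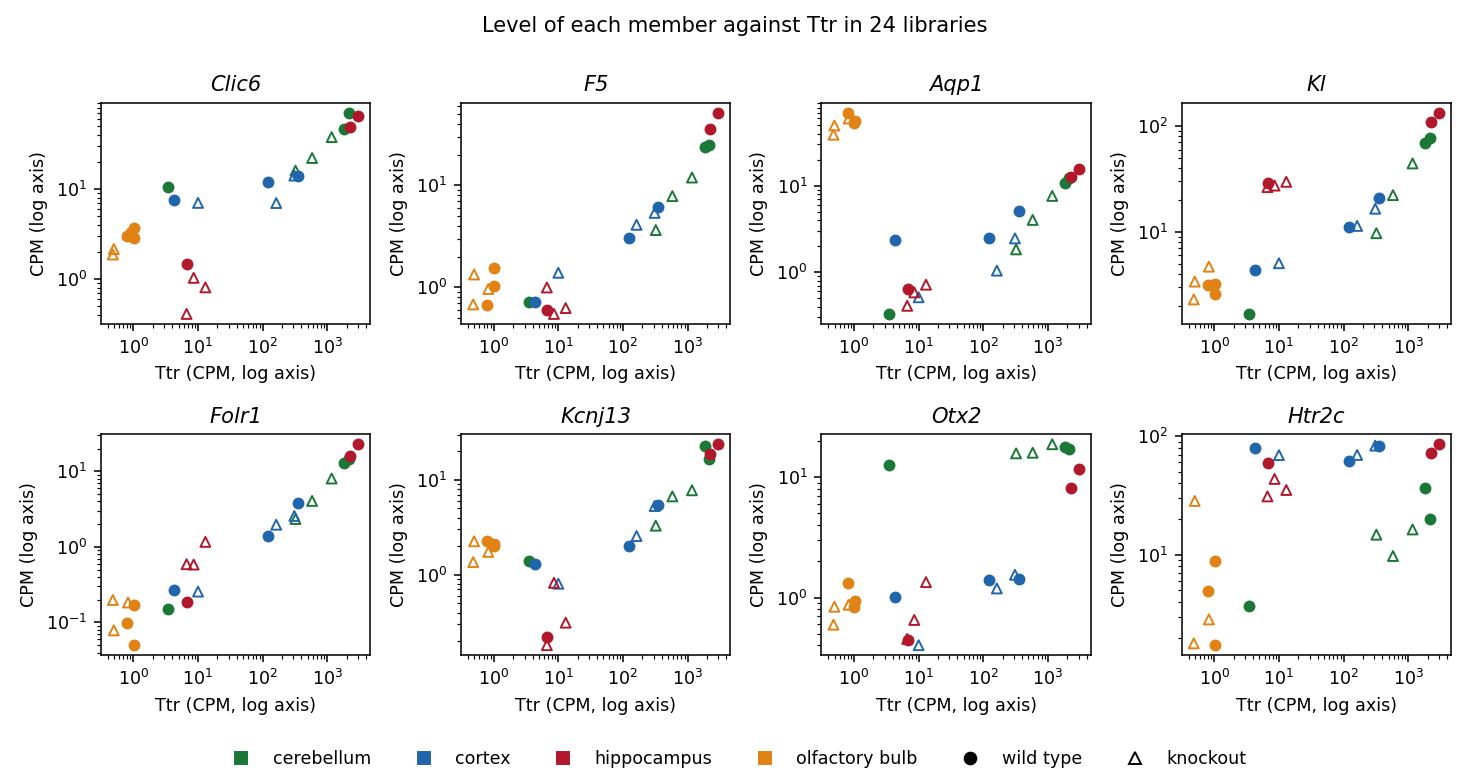
Level of each of the other 8 genes against Ttr, both in CPM on log axes, 1 point per library, coloured by region, filled circles for wild type and open triangles for knockout; a library with 0 counts of Folr1 is drawn at 0.05. Clic6, F5, Kl, Folr1 and Kcnj13 rise with Ttr above 100 CPM, the bulb libraries (orange) hold 39.0 to 69.5 CPM of Aqp1 at the lowest Ttr, and Otx2 in cerebellum and Htr2c in cortex are nearly flat.

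The 38 other choroid plexus genes were listed from general knowledge, with earlier results of these data known. They gave the same kind of line. In 37 of the 38 both slopes exceeded 2 SE, and the ratio of the hippocampal to the cerebellar slope had a median of 0.934 and ranged from 0.422 to 2.38. Of these, 6 had a higher hippocampal and 7 a higher cerebellar slope by more than 2 SE of the difference. Enpp2, autotaxin, a secreted lysophospholipase and the most abundant of the list, gave 587 and 488 CPM per 1000 CPM of Ttr. Prlr, the prolactin receptor, gave 7.22 (SE 0.850) in cerebellum and 16.3 in hippocampus, a difference in the direction of F5.

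**Figure D4:**
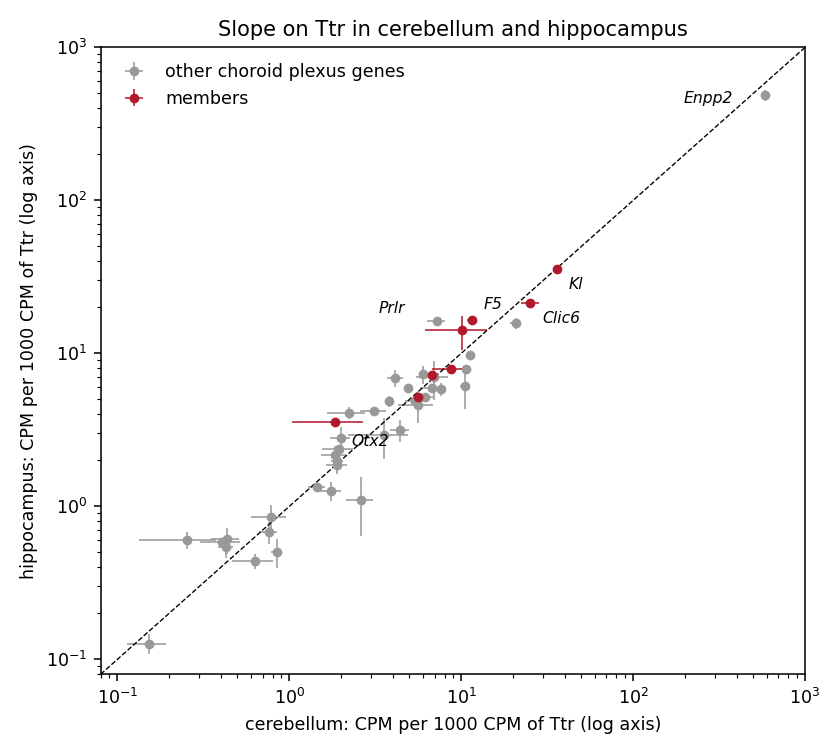
CPM gained per 1000 CPM of Ttr in the 6 cerebellum libraries (horizontal) and the 6 hippocampus libraries (vertical), on log axes, with SE bars, for the members (red) and the other choroid plexus genes (grey) whose slopes exceeded 2 SE in both. The dashed line marks equal slopes; Kl lies on it, and F5, Otx2 and Prlr lie above it.

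The genes that went most closely with the members were found by Pearson's r of log2 CPM, after the mean of each region was subtracted, with the mean of the 9 members, over 24 libraries and 14437 genes with at least 1 CPM on average. Tmem72, a transmembrane protein of the list, came first (r = 0.985), and after it Enpp2 (0.974), the frizzled-related Mfrp (0.969), 1500015O10Rik, the precursor of the peptide augurin (0.964), and the potassium channel subunit Kcne2 (0.960). The collagens Col8a2 (0.959) and Col8a1 (0.946), the glucose transporter Slc2a12 (0.955), the tight-junction protein Cldn2 (0.941) and the retinoid transporter Abca4 (0.941) completed the 10. Of these 10 genes, 9 were on the list of other choroid plexus genes, from which 28 genes were among those compared. Ranked among all genes the members stood at 2 (F5), 4 (Ttr), 6 (Kcnj13), 10 (Aqp1), 12 (Folr1), 24 (Clic6), 37 (Kl), 48 (Otx2) and 412 (Htr2c, r = 0.527), each member being part of the mean it was set against. When region means were not subtracted, Aqp1 stood at 5731 (r = 0.124) and Htr2c at 1768 (r = 0.413). The 24 libraries fall into 4 regions and are not independent points, so the r values are a description with no p.

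Levels by region were tested in the 12 wild-type libraries, each region against the mean of the other 3, with edgeR's quasi-likelihood test over 16729 genes and Benjamini-Hochberg adjustment at 0.05. The 4 comparisons use the same libraries. Here 3 members were higher in cerebellum (54.4% of all genes passed in that comparison, 27.5% as higher), 1 in cortex (39.3%, 21.8% as higher) and 5 in hippocampus (33% and 17.7%). In the bulb 1 member was higher and 6 were lower (43.7% of all genes passed, 22% as higher and 21.6% as lower). The members' shares thus lay on both sides of the background.

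Otx2 was higher in the cerebellum (log2 2.93, SE 0.538, edgeR adjusted p = 0.000952), and none of the 3 libraries overlapped the 9 others, as for 15.8% of all genes. Aqp1 was higher in the bulb (log2 3.26, SE 0.755, edgeR adjusted p = 0.00597), again without overlap, as for 10.2% of all genes. Htr2c was lower in the bulb (log2 -3.21, SE 0.691, edgeR adjusted p = 0.00405), and higher in cortex (1.93, SE 0.508, adjusted p = 0.0137) and hippocampus (1.88, SE 0.508, adjusted p = 0.0178). The cerebellar call of Otx2 and the bulb calls of Aqp1 and Htr2c held in all 12 runs that left out 1 library. The other calls of Htr2c were lost without cortex wild type 1 in cortex (adjusted p = 0.0577), and without wild type 1 or wild type 3 in hippocampus (adjusted p up to 0.0657). In the hippocampus Kl (2.91, SE 0.764, edgeR adjusted p = 0.0153), Ttr (4.90, adjusted p = 0.0329), F5 (2.93, adjusted p = 0.0486) and Folr1 (3.49, adjusted p = 0.0499) passed too, each with wild type 2 as the lowest hippocampal library. The call of Kl was lost without wild type 1 or wild type 3 (adjusted p up to 0.0654), that of Ttr in 8 of 12 such runs, and those of F5 and Folr1 in 10 of 12. The direction of these 3 turned in the knockout libraries (Ttr -2.11, F5 -2.07, Folr1 -0.45) and without wild type 1 and 3 (Ttr -3.07, F5 -2.64, Folr1 -2.55). With the replicate number as a block, 1 member passed in cerebellum, where 62.1% of all genes did, and 2 in hippocampus, where 41.8% did.

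The remaining calls were Ttr (log2 4.38, edgeR adjusted p = 0.0331) and Clic6 (1.94, adjusted p = 0.0483), higher in cerebellum, and Ttr (-9.58, adjusted p = 0.022, without overlap, as for 9.65% of all genes), Kl (-3.65, adjusted p = 0.0221), Otx2 (-2.29, adjusted p = 0.0259), Clic6 (-3.05, adjusted p = 0.0329) and Folr1 (-5.95, adjusted p = 0.0424), lower in the bulb. Leaving out 1 library of the 12 ended the cerebellar calls of Ttr in 8 and of Clic6 in 9 runs. It ended the bulb calls of Ttr, Kl and Otx2 without each of the 3 bulb libraries, that of Clic6 in 7 runs and that of Folr1 in 9. In the knockout libraries the hippocampus had no library rich in Ttr, and there Clic6 was lower in the hippocampus than in the other regions (log2 -3.42, edgeR adjusted p = 8.07e-05) where it had been at 1.73 in wild type. Of the 38 other choroid plexus genes, 5 were higher and 1 lower in wild-type cerebellum, 11 higher in hippocampus, and 1 higher and 13 lower in the bulb. Lmx1a, a roof-plate transcription factor, was among those higher in cerebellum (log2 3.20, SE 0.509, edgeR adjusted p = 0.000209) and hippocampus (2.35, SE 0.543, adjusted p = 0.00543) and lower in bulb (-4.46, SE 0.911, adjusted p = 0.00182). In cortex 1 was lower, the retinol dehydrogenase Rdh5 (log2 -1.14, edgeR adjusted p = 0.0305).

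Between knockout and wild type no member passed in any single region by edgeR. The share of all genes called was 0% in cerebellum, 0.0379% in cortex, 0% in hippocampus and 0% in the bulb. In cerebellum, cortex and bulb 0 members had an unadjusted p under 0.05, as 5.48%, 4.2% and 5.33% of all genes did, and DESeq2 and limma-voom called 0. In cerebellum 8 of 9 members were lower (median log2 -0.94 against -0.0019 over all genes), and the groups overlapped for every member, where 11.2% of all genes did not overlap. In cortex the median of the members was -0.14 and Htr2c was at -0.01 (SE 0.125), while Otx2 in cerebellum was at 0.08 (SE 0.140). The largest cortical difference of a member was that of Aqp1, at 5.14, 2.46 and 2.34 CPM in wild type and 1.04, 0.512 and 2.46 CPM in knockout (log2 -1.30, SE 0.576, unadjusted p = 0.0594, edgeR adjusted p = 1), with overlapping groups. The 4 olfactory bulb markers, summed, were at 27.3 to 49.0 CPM in wild-type and 15.9 to 18.1 CPM in knockout cortex. Each of the 4 was lower without overlap, as 4.26% of all genes were, with a median log2 of -1.73, and their part in the value of Aqp1 was not tested. In cerebellum the same sum went the other way, at 26.4 to 36.4 CPM in wild type and 62.8 to 93.3 CPM in knockout. Aqp1 was there at log2 -0.80 (SE 1.155). In the bulb 8 members were tested and their median was -0.28.

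In hippocampus all 9 members were lower in the knockout, with a median log2 of -4.08 against -0.0016 over all genes. Ttr was lower by 187-fold (log2 -7.54, SE 2.166, edgeR adjusted p = 0.954) and Clic6 by 49.7-fold (-5.64, SE 1.52, adjusted p = 0.954), values carried by wild type 1 and wild type 3. All 9 members had an unadjusted p under 0.05, as did 5.16% of all genes. DESeq2 called 4 members and 0.238% of all genes, and limma-voom called 0. Without wild type 2, 8 of the 9 passed in edgeR, where 0.268% of all genes passed. Wild type 2 was the wild-type library with little Ttr (6.78 CPM), so leaving it out sets rich wild-type libraries against poor knockout ones. That count follows from the library left out and is no separate support. Groups did not overlap for Clic6 and Htr2c, both lower, as for 4.96% of all genes. Of the 38 other choroid plexus genes 29 were tested, and all 29 had lower values in the knockout (median -2.11). None of them passed in edgeR, and 19 had an unadjusted p under 0.05.

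Htr2c in hippocampus had the smallest p of the members (log2 -0.98, SE 0.169, unadjusted p = 0.000587, edgeR adjusted p = 0.817). The 3 knockout libraries, at 31.0 to 43.6 CPM, lay below wild type 2 at 59.0 CPM, although wild type 2 held as little Ttr as they did. With the mean log2 level of the other choroid plexus genes as a covariate the difference was -0.65 (SE 0.172, edgeR adjusted p = 0.946), and without wild type 1 and 3 it was -0.69 (SE 0.192, adjusted p = 0.909). DESeq2 called it (adjusted p = 0.000289). Of 14 other serotonin receptor and transport genes 11 were tested in hippocampus, and 0 passed in edgeR. Htr4 had an unadjusted p of 0.0471 (log2 0.31, SE 0.132, edgeR adjusted p = 0.963), with overlapping groups. Htr5a was lower without overlap (log2 -0.21, SE 0.0969, adjusted p = 0.973). Both are named after their values were seen.

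Averaged over the 4 regions, 1 member of 9 passed in edgeR, where 2.68% of all 17266 genes passed and 0.863% as lower. Clic6 fell by 1.76 on the log2 scale (SE 0.435, edgeR adjusted p = 0.0361), 3.39-fold. The other 8 were also on the lower side (median of all 9 -1.58 against -0.0012 over all genes). Among them Aqp1 was at -1.61 (adjusted p = 0.0947), Kcnj13 at -1.59 (0.149), F5 at -1.58 (0.207), Ttr at -2.27 (0.327), Otx2 at -0.92 (0.184), Folr1 at -1.09 (0.710), Kl at -0.64 (0.602) and Htr2c at -0.11 (0.959), all by edgeR. The call of Clic6 rested on few libraries: it held in 5 of 24 runs that left out 1 library (adjusted p from 0.00102 to 0.0728), and it was at -0.59 (SE 0.323, edgeR adjusted p = 0.498) without hippocampus wild type 1 and 3. With the replicate number as a block its edgeR adjusted p was 0.0833. With the level of the other choroid plexus genes as a covariate Clic6 was at -0.866 (SE 0.215, edgeR adjusted p = 0.0407), and Ttr (0.60), Folr1 (0.84) and Kl (0.25) were on the higher side, as the plot of knockout effects shows.

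**Figure D5:**
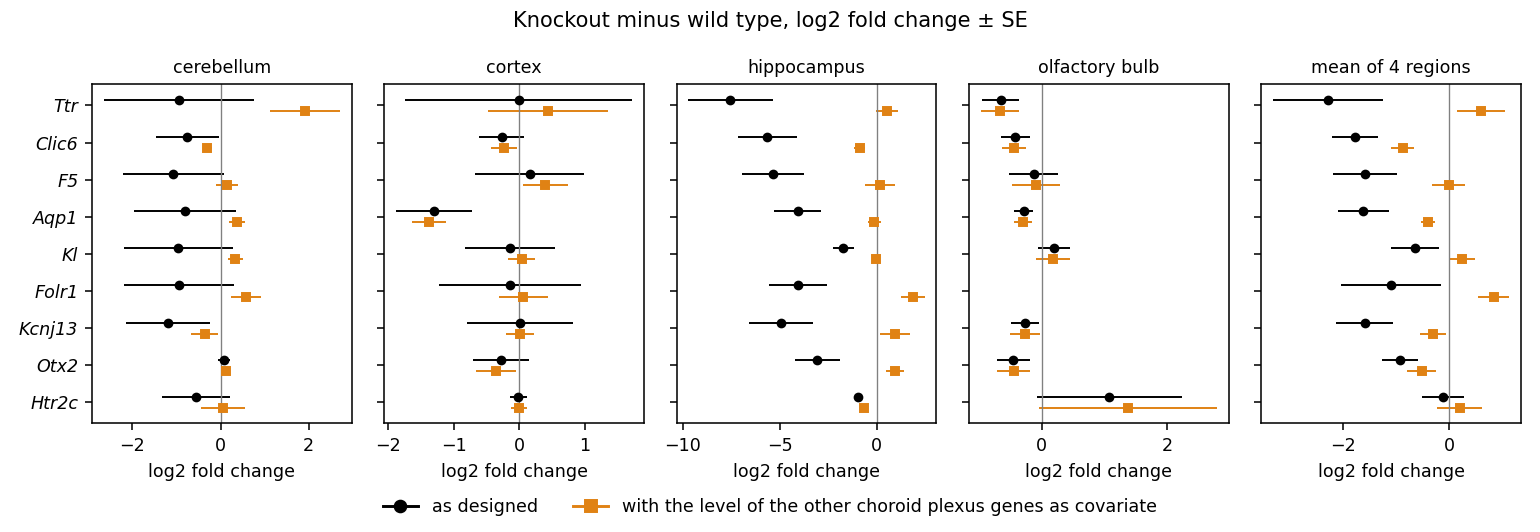
Knockout minus wild type as log2 fold change with SE for each member, by region and for the mean of 4 regions, as designed (black circles) and with the mean log2 level of the 38 other choroid plexus genes as a covariate (orange squares); each panel has its own axis. In hippocampus Ttr lies at -7.54 without and 0.54 with the covariate, and Folr1 has no value in the bulb, where too few counts passed the filter. The covariate was 2.97 and 3.40 in hippocampus wild type 1 and 3 and at most 0.556 in the other hippocampal libraries. Genotype and choroid plexus content thus cannot be fully told apart there.

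No member's knockout effect differed between regions in the interaction test of edgeR, where 0.0232% of genes passed; 5 members had an unadjusted p under 0.05, as did 2.54% of all genes. DESeq2 called 1 member and 0.232% of all genes, and limma-voom called 0 members. Clic6 had the smallest p of the members (unadjusted p = 0.00223, adjusted p = 0.857). Without hippocampus wild type 2 both Clic6 (edgeR adjusted p = 0.0135) and Otx2 (0.00807) passed, with 0.12% of all genes. Here too the library left out was the wild-type hippocampal one with little Ttr.

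Among the other choroid plexus genes 0 of 38 passed in edgeR on the mean of the 4 regions, 16 had an unadjusted p under 0.05 and 37 were on the lower side (median -0.73). The share of all genes with such an unadjusted p was not taken, so the count of 16 has no background beside it. Markers of neighbouring cells were counted in the same comparison. Of 12 ependyma markers 1 passed, the cilium gene Tekt4 (log2 -0.81, SE 0.191, edgeR adjusted p = 0.0246), and of 8 endothelium markers 1, Ly6c1 (-0.24, SE 0.0450, adjusted p = 0.00428). None passed among the markers of meningeal fibroblasts (12), neurons (12), astrocytes (7), oligodendrocytes (6), erythrocytes (3), thalamus and habenula (11) or pineal and subcommissural organ (4 tested), where 1 gene, a neuron marker, had an unadjusted p under 0.05. Summed ependyma markers were at 31.9 to 52.8 CPM in wild-type and 35.2 to 68.1 CPM in knockout hippocampus, with overlapping groups. Whether they went with Ttr from library to library was not tested. Summed meningeal markers were at 277.4 to 443.9 CPM in wild-type and 143.9 to 365.2 CPM in knockout hippocampus, and their part in the result was not tested.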

How the data were processed

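Poly(A) RNA of 24 libraries was measured, 3 in each of 8 groups of region and genotype taken from the labels. The tables the authors deposited hold whole-number read counts for each gene, not normalized. Per the submitters' processing notes, the authors used bcl2fastq 2.17.1.14, STAR 2.5.1b, HTSeq 0.6.1p1 and mouse build mm9; the roles and the strand setting of the counting are not given in the sources used here. Summary lines (no feature, 8.22% to 16.8% of counts) were left out of library sizes. Replicate pairs differed beyond sampling noise in all 24 pairs (chi-square per degree of freedom 6.61 to 56.1), so each library counted once.

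Counts were filtered, TMM-scaled and tested with edgeR 4.0.16 (quasi-likelihood, robust, Benjamini-Hochberg over all genes tested, called at 0.05; R 4.3.3), with DESeq2 1.42.0 and limma 3.58.1 as alternatives, and other alternatives as given in the closing section. The code was tested on simulated data: with 100 genes changed 2-fold, 98% were recovered in the hippocampus comparison (15440 genes). The simulation gave all genes the same spread between replicates, so it checks the code and does not measure the power of these libraries. Exon lengths are those of GENCODE vM21 on GRCm38. Libraries of equal number went together in cerebellum, hippocampus and bulb (correlation of deviations 0.212 to 0.643, 0.309 to 0.589 and 0.215 to 0.726) and not in every pair in cortex (-0.0949 to 0.628); the labels do not say what the number marks.

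The members, gene lists and tests were chosen with earlier results of these data known. All 9 members are named. Other genes are the most abundant or called genes of each list and the 10 most like the members, with some exceptions. Prlr among the slopes, Neurod6 in the bulb, and Htr4 and Htr5a in hippocampus were chosen after their values were seen. The region marker sets and the lines on Ttr were added after seeing the data.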

Additional observations from a re-analysis of the deposited data

How the results depend on the processing

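The number of members past the threshold of 0.05 depended on the processing in most comparisons. For knockout minus wild type on the mean of 4 regions, 1 member passed as designed, 4 with DESeq2, and 0 with limma-voom, with no filter on low counts, with the replicate block, with libraries of equal genotype and number treated as correlated (consensus correlation 0.216), without the libraries rich in choroid plexus (hippocampus wild type 1 and 3), and without each region in turn; leaving out 1 library gave 0 to 4. In hippocampus DESeq2 called 4 and leaving out 1 library gave 0 to 8, the highest without wild type 2; in the interaction the values were 1 and 0 to 2. For wild-type cerebellum (3 members) the count was 1 with limma-voom, no filter or the replicate block, 7 in knockout libraries, 6 without the rich libraries and 1 to 5 leaving out 1 library. For cortex (1) it was 3 with DESeq2, 2 with library totals, 5 in knockout libraries, 0 without the rich libraries and 0 to 3 leaving out 1. For hippocampus (5) it was 2 with limma-voom, no filter or the replicate block, 3 with library totals, 1 without the rich libraries and 0 to 8 leaving out 1. For the bulb (7) it was 2 with limma-voom, 3 with no filter or without the rich libraries and 2 to 8 leaving out 1. The replicate block changed no other count by over 1.5 times. Leaving out 1 library, 7618 to 9472 of all genes were called in wild-type cerebellum (9099 as designed) and 4658 to 6924 in cortex (6582). In hippocampus it was 4084 to 5679 (5522) and in the bulb 5882 to 7800 (7306). For the mean of 4 regions it was 342 to 553 (462). Shares of all genes under most other settings are not given here, so member counts there have no background.

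Signs turned with choroid plexus content as a covariate, in knockout libraries and without the rich libraries. Values as designed that were smaller than their standard error were counted only where the gene was called as designed or in the other setting. The values below are given without their errors, and some lie near 0. In hippocampus choroid plexus content was high only in wild type 1 and 3, so it cannot be fully told apart from genotype. With content as a covariate, knockout minus wild type in hippocampus was log2 0.54 for Ttr, 0.16 for F5, 1.88 for Folr1, 0.96 for Kcnj13 and 0.95 for Otx2. On the mean of regions it was 0.60 for Ttr, 0.25 for Kl and 0.84 for Folr1. Without the rich libraries the hippocampal values were 0.47, 0.27, 2.02, 1.01 and 0.85 in the same order, and on the mean 0.42 for Folr1 and 0.055 for Otx2. Region comparisons in knockout libraries gave, for cortex, 1.38 for Clic6, 1.04 for F5 and 0.77 for Kcnj13, and for hippocampus -2.11 for Ttr, -3.42 for Clic6, -2.07 for F5, -0.45 for Folr1, -2.74 for Kcnj13 and -1.55 for Otx2. Without the rich libraries they were 0.56 for F5 and 0.60 for Kcnj13 in cortex, 0.039 for Kcnj13 in the bulb, and -3.07, -2.94, -2.64, -2.55, -4.21 and -2.57 in hippocampus in the order just given. Of the 10 genes most like the members, 6 were shared when region means were not subtracted. The cause of the other differences between settings was not tested. Low members such as Folr1 in the bulb are limited by depth.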
